A study of Rattus norvegicus with 2 samples.

Results

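The genes of the cytosolic ribosomal proteins were compared between rat cortical neural stem cells kept with the channel blocker ZD7288 and cells kept with its solvent. Members were taken by symbol: every symbol that starts with Rpl or Rps followed by a digit, with Rplp0, Rplp1, Rplp2 and Rpsa, and without the Rps6k kinases and symbols that contain -ps. The rule found 95 rows with 88 symbols among 25399 rows of the gene table. By name, 35 rows code for proteins of the small (40S) subunit and 59 for proteins of the large (60S) subunit. The remaining row, Rps19bp1, meets the rule by its symbol but codes for a nucleolar protein that binds Rps19 and is no subunit. It is left out of the 40S and 60S values but stays in all counts, medians and shares of the members.

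Both groups were rat (Rattus norvegicus) neural stem cells from the cortex of Sprague-Dawley embryos (E14.5), bought as isolated cells. They were cultured in complete medium with FGF2, a growth factor that keeps such cells from differentiating. The vehicle group received DMSO at a final 0.2% and the treated group 30 µM ZD7288 in the same DMSO, for 48 h with full renewal after 24 h. ZD7288 is a blocker of hyperpolarisation-activated cation channels, and the label of the treated culture spells it ZD2788. Each group was 1 culture and 1 droplet library (10x Genomics 3′ kit), so culture, library and treatment cannot be told apart and no test, p-value or standard error is given. The deposited barcodes carry a library number, which was matched to the number in each sample title, and no other source used here bears on that match, which sets the sign of all ratios.

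A ribosome joins a 40S subunit, which reads the messenger RNA, to a 60S subunit, which links the amino acids. Its proteins are made in matched amounts and their messenger RNAs are among the most abundant of growing cells. In mammals nearly all of these messenger RNAs begin with a C followed by a run of pyrimidines, the 5′ terminal oligopyrimidine (TOP) motif, through which the mTOR pathway and the protein LARP1 control their translation and stability. Progenitor cells of the developing cortex grow and divide quickly, which calls for many ribosomes.

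The shared sequence feature of the family was read at the annotated transcription starts. Promoters of the RefSeq table (build GRCr8) matched 67 of the 88 symbols with 68 promoters. The motif searched, on the strand of the gene, was a C followed by at least 4 bases that are each C or T, beginning within 5 bases of the start on either side. It was present in 38 of 68 member promoters (55.9%) and in 17.0% of all 33469 promoters of the table, and it began exactly at the start in 29.4% of member promoters against 2.63% of all. The windows below hold 35 bases before the start and 15 from the start onward, 5′ to 3′, with a run that met the rule in capitals. They are shown for members with the highest levels, for those with the lowest and some of those with the highest ratios, and for Rps19bp1, which is no subunit. Rps27a and Rps10, also among the highest ratios, are not shown.
Rpl41, chr7:1563483-1563532, minus strand: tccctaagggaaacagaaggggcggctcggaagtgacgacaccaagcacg
Rps2, chr10:14251813-14251862, plus strand: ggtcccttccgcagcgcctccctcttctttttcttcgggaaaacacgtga
Rplp0, chr12:46718376-46718425, minus strand: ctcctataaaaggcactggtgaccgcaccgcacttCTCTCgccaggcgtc
Rps18, chr20:4933710-4933759, plus strand: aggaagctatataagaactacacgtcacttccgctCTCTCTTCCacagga
Rpl37a, chr9:81748056-81748105, plus strand: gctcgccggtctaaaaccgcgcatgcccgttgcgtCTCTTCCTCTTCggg
Rpl35, chr3:43165907-43165956, minus strand: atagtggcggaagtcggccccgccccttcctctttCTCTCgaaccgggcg
Rps21, chr3:187724003-187724052, plus strand: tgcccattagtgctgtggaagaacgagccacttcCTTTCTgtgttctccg
Rpl39, chrX:121195882-121195931, minus strand: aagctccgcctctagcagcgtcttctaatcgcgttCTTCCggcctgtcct
Rpl37, chr2:55942910-55942959, plus strand: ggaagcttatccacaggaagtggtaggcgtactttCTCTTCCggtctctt
Rps12, chr1:23500040-23500089, plus strand: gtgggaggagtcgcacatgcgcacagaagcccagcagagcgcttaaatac
Rps16, chr1:92770623-92770672, plus strand: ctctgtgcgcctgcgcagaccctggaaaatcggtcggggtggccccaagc
Rpl22l1, chr2:113683161-113683210, plus strand: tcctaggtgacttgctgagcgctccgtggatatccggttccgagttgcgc
Rps19bp1, chr7:113693009-113693058, minus strand: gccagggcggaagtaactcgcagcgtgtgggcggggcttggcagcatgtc
Each window spans the annotated start of its gene. The match by the rule is counted from its C, and it begins at the start itself, with 5 to 12 bases, in Rplp0, Rps18, Rpl37a, Rpl35, Rpl39 and Rpl37, and 1 base before it in Rps21. In each of these 7 genes the pyrimidines also extend upstream of that C, so that the whole run begins from 1 base (Rpl37a) to 13 bases (Rpl35) before the start. In Rps2 no run met the rule, and the longest pyrimidine run of its window, 20 bases, began 19 bases before the annotated start. A match or its absence describes these letters at the annotated start only.

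The cells were checked first. After filters on UMIs (unique molecular identifiers, each a captured RNA molecule), detected genes and mitochondrial share, 732 vehicle and 3135 ZD7288 cells were kept, with 15611454 and 73681950 UMIs. Median UMIs per cell were 17119 and 23001, and the median mitochondrially encoded share was 5.84% and 4.70%. Of 10 neural stem cell markers 8 were measured, with a summed level of 7612 CPM (UMIs per 1000000) in the vehicle and 7513 CPM in the ZD7288 library, and Pax6 and Prom1 lay under the 20 CPM limit. Single markers of this list went both ways, with Vim at 4204 and 4690 CPM, Slc1a3 at 186 and 294 CPM, Fabp7 at 2647 and 2023 CPM and Notch1 at 47.3 and 19.7 CPM. Oligodendrocyte precursor markers summed to 2270 and 1234 CPM with 3 of 6 measured, and neuron markers to 103 and 84.1 CPM with 1 of 6. Astrocyte markers summed to 33.6 and 46.5 CPM with 1 of 5 and Aqp4 at 0 in both, mesenchymal markers to 0.705 and 14.6 CPM, and blood and endothelial markers to at most 1.05 CPM. Barcode sequences were shared by the libraries in 3 cases, all of cells kept in both.

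Of the 95 rows, 73 were measured, meaning at least 20 CPM in the higher library. Among them 63 exceeded 1000 CPM in the vehicle library. The median member stood at 3290 CPM in the vehicle library, and 69 members had a UMI in at least 99% of vehicle cells. All members together made up 24.7% of the vehicle UMIs and 22.2% of the ZD7288 UMIs. No cell type lacks these genes, so no background share can be given. Intervals below are exact 95% intervals for counting error only, and they say nothing of the spread between cultures.

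Across the family the ratios of ZD7288 to vehicle CPM lay just below 1. The ratio was below 1 for 64 of 73 measured members, against 40.5% of all 4823 measured genes. Its counting interval lay wholly below 1 for 63 members (30.7% of all genes) and wholly above 1 for 6 (48.9% of all genes). The median log2 ratio was -0.15 over the members, a ratio of 0.900, and 0.09 over all measured genes. The 40S and the 60S members had the same median of -0.15. By the size rule, a log2 ratio of at least 0.32 either way, 3 members were lower (13.7% of all genes) and 0 were higher (27.1% of all genes). Scaling by the median gene ratio made 21 members lower, and the count went from 0 in cells of 2.5 to 5% mitochondrial UMIs to 40 in cells of 7.5 to 10%, as given further on. The measured members spanned a narrow range, from -0.39 to 0.24, where the 5th to 95th percentile of all measured genes ran from -0.59 to 0.79. Most measured genes were far less abundant, with a median of 52.2 CPM in the vehicle library, and the spreads were not compared at equal depth. Among 176 other genes with at least 500 CPM in both libraries, the median was -0.02, with 22 higher and 20 lower.

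**Figure D1:**
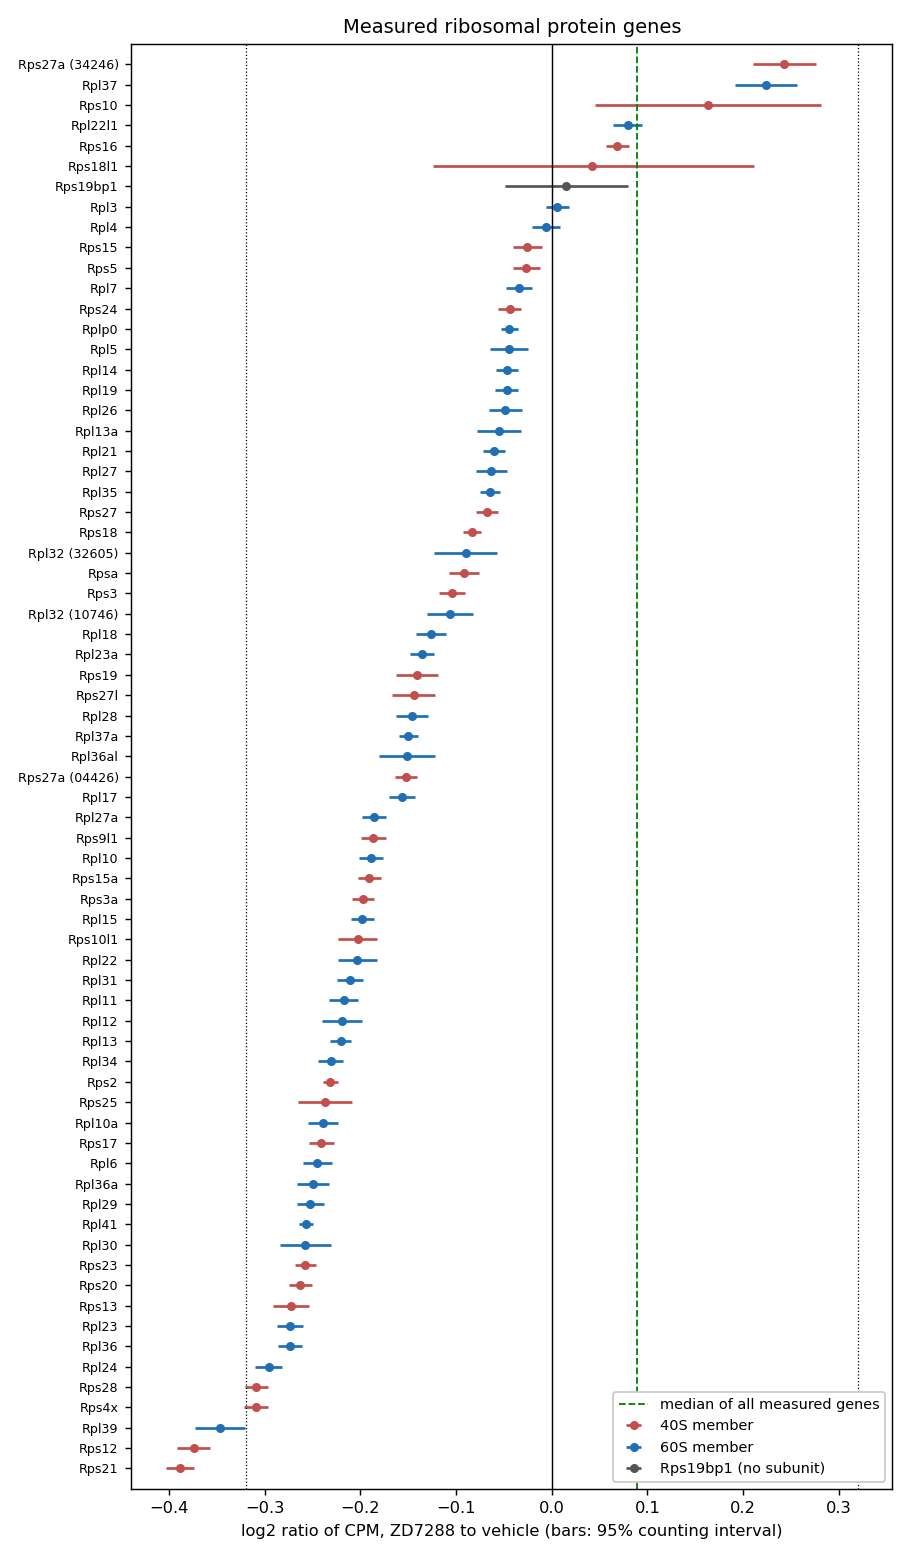
Log2 ratio of ZD7288 to vehicle CPM for 70 of the 73 measured members, ordered by ratio, with exact 95% counting intervals. Colours give the subunit, dotted lines the size rule of 0.32, and numbers in brackets tell apart rows of 1 symbol by the last digits of their identifiers. Points of both subunits are mixed along the whole range, and 62 of those drawn lie left of 0 while the median of all measured genes lies at 0.09.

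The 3 members that passed the size rule were Rps21, Rps12 and Rpl39. Rps21, a small protein on the solvent side of the 40S subunit, stood at 3041 CPM (3014 to 3069) in the vehicle and 2323 CPM (2312 to 2334) in the ZD7288 library, a log2 ratio of -0.39 or 1.31 times lower (1.30 to 1.32). Rps12, which sits at the beak of the 40S subunit, stood at 2241 CPM (2218 to 2265) and 1729 CPM (1720 to 1739), a log2 ratio of -0.37 or 1.30 times lower (1.28 to 1.31). Rpl39, which lines the tunnel through which the new protein leaves the 60S subunit, stood at 945 CPM (930 to 961) and 743 CPM (737 to 749), a log2 ratio of -0.35 or 1.27 times lower (1.25 to 1.30). Rps12 did not pass the rule in cells thinned to 2000 UMIs, at -0.26, where Rps18l1 passed it at -0.32. Rps18l1 had few UMIs, and over all kept cells its log2 ratio was 0.04, with a ratio interval of 0.918 to 1.16. Neither Rps12 (-0.27) nor Rpl39 (-0.30) passed the rule in cells of 10000 to 30000 UMIs. The 3 genes differed in their annotated starts, with a run in Rps21 and Rpl39 and none in Rps12.

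Just within the size rule lay Rps4x, Rps28, Rpl24 and Rpl36. The X-linked 40S gene Rps4x stood at 4183 CPM in the vehicle and 3375 CPM in the ZD7288 library, a log2 ratio of -0.31. For Rps28 the values were 4672 and 3772 CPM, also a log2 ratio of -0.31. The 60S members Rpl24 and Rpl36 had log2 ratios of -0.30 and -0.27. None of these 4 passed the rule as reported. All 4 passed it when scaled by the median gene ratio, from -0.36 (Rpl36) to -0.40 (Rps4x). They also passed it when scaled by UMIs outside members and mitochondrial genes. In cells of 7.5 to 10% mitochondrial UMIs all 4 passed it too, from -0.44 (Rps28) to -0.50 (Rps4x). Of these 4 only Rps28 passed it in cells from 10 cell cycle UMIs, at -0.35.

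Among the members of the 60S subunit with the highest vehicle CPM were Rpl41, Rplp0, Rpl37a and Rpl35. UMIs count 3′ ends and are not scaled by gene length, so these levels are on the scale of captured molecules. Rpl41, which codes for the smallest ribosomal protein, a short basic helix, stood at 13271 CPM (13214 to 13328) in the vehicle and 11107 CPM (11083 to 11131) in the ZD7288 library, a log2 ratio of -0.26. It alone made up 5.38% of the vehicle UMIs of all members. Rpl37a, a zinc-binding protein of the 60S subunit, stood at 6435 and 5800 CPM, a log2 ratio of -0.15. Rpl35, at the exit of the protein tunnel, stood at 6000 and 5738 CPM, a log2 ratio of -0.06. The counting intervals of these 4 ratios all lay below 1.

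Of the P stalk, the arm of the 60S subunit that recruits elongation factors, Rplp0 was the only measured gene. Rplp0 codes for the stalk base and stood at 7619 CPM (7576 to 7663) in the vehicle and 7388 CPM (7369 to 7408) in the ZD7288 library, a log2 ratio of -0.04. Its partner Rplp2 had 2 UMIs in the vehicle and 3 in the ZD7288 library, and Rplp1 had no row under that symbol. Rpl5 and Rpl11, which bind 5S ribosomal RNA and, outside the ribosome, the p53 regulator Mdm2, differed from each other over all kept cells. Rpl5 stood at 1607 and 1558 CPM, a log2 ratio of -0.04 (ratio 0.970, 0.956 to 0.983). Rpl11 stood at 2908 and 2501 CPM, a log2 ratio of -0.22 (ratio 0.860, 0.851 to 0.869), and the counting intervals of their ratios did not overlap. The log2 ratios of Rpl5 and Rpl11 were -0.03 and -0.21 in cells of 2.5 to 5% mitochondrial UMIs. In cells of 7.5 to 10% they were close to each other, at -0.26 and -0.28.

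In the 40S subunit, Rps2, Rps18, Rps23 and Rps27a were among the members with the highest vehicle CPM. Rps2, near the entry of the messenger RNA channel, stood at 9718 CPM (9669 to 9767) in the vehicle and 8278 CPM (8257 to 8298) in the ZD7288 library, a log2 ratio of -0.23. Rps18, in the head of the subunit, stood at 7010 and 6618 CPM, a log2 ratio of -0.08. Rps23, which lies by the decoding centre, stood at 5082 and 4252 CPM, a log2 ratio of -0.26. Rpsa, also known as a laminin receptor, stood at 2579 and 2420 CPM, a log2 ratio of -0.09. Each of these was lower than the vehicle level by less than the size rule.

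The ubiquitin fusion gene Rps27a, whose product is split into ubiquitin and a 40S protein, was present in 2 rows that went opposite ways. The main row stood at 4963 CPM in the vehicle and 4465 CPM in the ZD7288 library, a log2 ratio of -0.15. The other row stood at 550 CPM (538 to 562) and 651 CPM (645 to 657), a log2 ratio of 0.24, the highest among the measured members. Which of these rows holds the reads of the functional gene cannot be told from the files, so the sign for Rps27a is uncertain. Outside the symbol rule, the 40S scaffold gene Rack1 had a log2 ratio of -0.11, and Fau, which codes for another 40S fusion protein, was at 0 UMIs in both libraries.

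**Figure D2:**
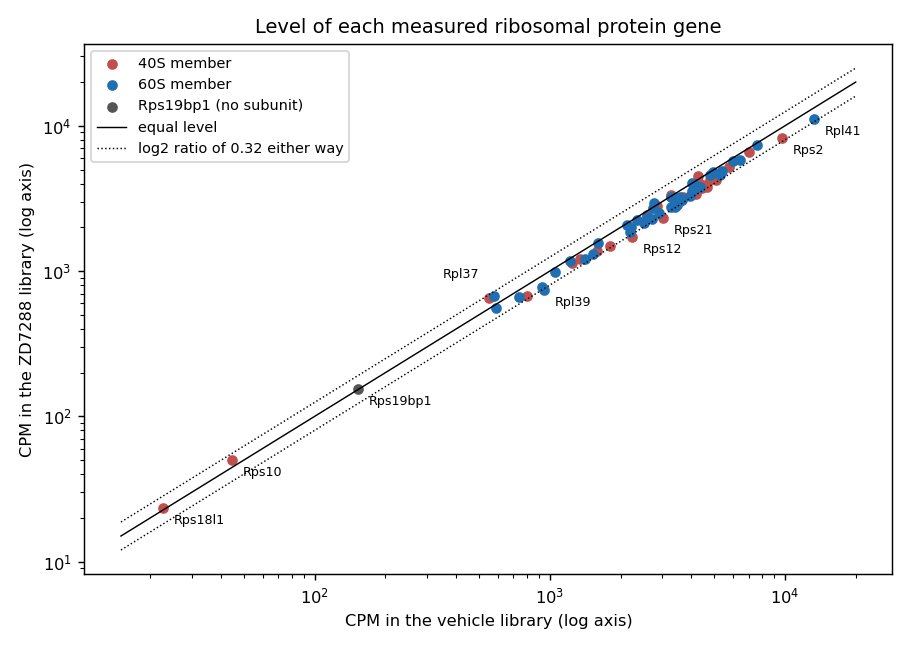
CPM of each measured member in the vehicle library (horizontal) and in the ZD7288 library (vertical), both on log axes, with the line of equal levels and the size rule. Most points form a band just under the line of equal levels, with Rps21, Rps12 and Rpl39 on or past the lower dotted line and Rpl37 above the line of equal levels.

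A few members lay above a ratio of 1, and apart from the paired genes they are named after their values were seen. Rpl37 stood at 580 CPM (568 to 592) in the vehicle and 677 CPM (671 to 683) in the ZD7288 library, a log2 ratio of 0.22. Rps16 stood at 4274 CPM (4241 to 4306) and 4481 CPM (4466 to 4496), a log2 ratio of 0.07, which became -0.02 when the libraries were scaled by the median gene ratio. Rpl3 and Rpl4, 2 of the large proteins of the 60S core, had ratios just above 1 (1.004) and just below 1 (0.996). The counting intervals of both ratios included 1. Rps19bp1, the row that is no subunit, stood at 153 and 154 CPM, and its interval of 0.967 to 1.06 included 1 as well.

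Among 11 pairs of members with similar symbols, 5 had both genes measured. Rpl22 stood at 1519 CPM (1500 to 1539) in the vehicle and 1320 CPM (1311 to 1328) in the ZD7288 library, a log2 ratio of -0.20. Its paralog Rpl22l1, which can take the place of Rpl22 in the ribosome, stood at 2770 CPM (2744 to 2796) and 2927 CPM (2915 to 2939), a log2 ratio of 0.08, which became -0.01 under scaling by the median gene ratio. The ratio of Rpl22l1 thus lay above that of Rpl22 with counting intervals that did not overlap. Rps27 and Rps27l, the latter known as a p53 target, had log2 ratios of -0.07 and -0.14.

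Other pairs depend on how reads of near copies were assigned. Rps10 stood at 44.6 and 49.9 CPM (log2 ratio 0.16), and Rps10l1 at 1587 and 1379 CPM (log2 ratio -0.20), so most UMIs of this protein lay in the row named as a copy. Rps18l1 stood at 22.7 and 23.3 CPM beside the far higher Rps18. Rpl36a and Rpl36al stood at 2203 and 742 CPM in the vehicle library, with log2 ratios of -0.25 and -0.15. In the remaining pairs at least 1 gene was not measured: Rpl10l, Rpl35a and Rpl35al1 were at 0 UMIs, Rpl3l had 0 and 2, Rpl30l1 3 and 17, Rpl39l 5 and 19, and Rpl7l1 14 and 67 UMIs in vehicle and ZD7288. The values of all these pairs are uncertain where reads match both copies. Without the members of several rows or similar symbols, 53 members remained with a median log2 ratio of -0.19.

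Not measured were 22 rows, of which 8 were at 0 UMIs in both libraries. These 8 included Rps6, the 40S protein phosphorylated by S6 kinase, and the 60S genes Rpl8, Rpl9 and both rows of Rpl38. The limit used for a count of 0 is 3 counts, one-sided and so below the upper end of a two-sided exact interval, or 0.192 CPM in the vehicle and 0.0407 CPM in the ZD7288 library, by counting error only. Rps29 had 225 and 371 UMIs, or 14.4 and 5.04 CPM, a log2 ratio of -1.52 (ratio 0.349, 0.295 to 0.414). Being under the 20 CPM limit, Rps29 is not in the range and counts given for the measured members. The other unmeasured rows had at most 28 UMIs in the vehicle and 87 in the ZD7288 library, among them 3 extra rows of Rpl21 and both rows of Rpl7a. Rps7, Rps14 and Rps26 had no row under these symbols, so the members lack them. Rps9 also had no row under its own symbol. Rps9l1, which has an entry of its own in the RefSeq promoter table, stood at 3668 and 3224 CPM (log2 ratio -0.19). Whether the Rps9l1 row holds the reads of Rps9 was not tested. The unmeasured subunit genes code for known parts of the ribosome, and whether their reads were assigned to other rows or left uncounted was not tested. In addition, 15 rows with only a clone or locus identifier exceeded 1000 CPM in the vehicle library and held 5.43% and 5.70% of UMIs, and whether they are copies of these genes was not tested.

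Per cell, the members made up a median of 24.1% of UMIs in the vehicle library, with the 5th to 95th percentile from 19.97% to 28.5%. In the ZD7288 library the median was 22.1%, with the 5th to 95th percentile from 18.3% to 25.6%. The distributions overlapped widely, and 82.6% of ZD7288 cells lay below the vehicle median. Over cells the SD was 2.75 and 2.48 percentage points (732 and 3135 cells), of which counting alone would give 0.357 and 0.399. Cells with under 15% numbered 3 in the vehicle library (0.410%) and 52 in the ZD7288 library (1.66%). Cells of 1000 to 5000 UMIs numbered 22 in the vehicle and 297 in the ZD7288 library, with 5th percentiles of member share at 13.1% and 10.8%. The part of such shallow cells in the count under 15% was not tested. The 40S to 60S balance was nearly the same, with 0.728 UMIs of 40S members per UMI of 60S members in the vehicle and 0.721 in the ZD7288 library.

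**Figure D3:**
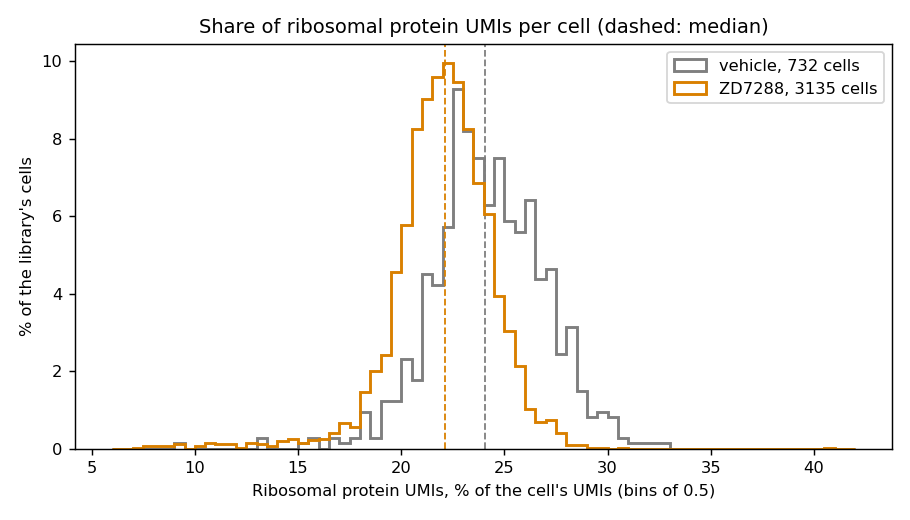
Share of each cell's UMIs that belong to the 95 member rows (horizontal, bins of 0.5 percentage points) against the percentage of the library's cells, for 732 vehicle and 3135 ZD7288 cells, with dashed lines at the medians. The ZD7288 cells peak near their median of 22.1%, and the vehicle cells spread further to the right around 24.1%.

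The summed counts of the 40S and of the 60S members varied together from cell to cell. At an equal depth of 2000 UMIs per cell, which left 724 vehicle and 2956 ZD7288 cells, the summed 40S and 60S counts had Pearson's r of 0.68 and 0.65, a description over cells that share a library. The summed members had an SD over cells of 55.6 UMIs in the vehicle and 47.0 UMIs in the ZD7288 library, where counting alone would give 19.2 and 18.6. Their Fano factor (variance over mean) was 6.39 and 4.98. Single members had a median Fano factor of 1.09 in each library and the highest for Rpl41, at 1.74 and 1.43. For a given relative spread this factor grows with the mean count, so the sum and single genes are not on 1 footing.

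The difference between the libraries was not alike in all cells, and it moved with the share of mitochondrially encoded UMIs. In cells with 2.5 to 5% mitochondrial UMIs, 155 in the vehicle and 1632 in the ZD7288 library, the median member share was 22.7% and 22.1%. In cells with 5 to 7.5%, it was 24.6% in 477 vehicle cells and 22.2% in 1134 ZD7288 cells. In cells with 7.5 to 10%, it was 26.1% in 82 vehicle cells and 20.5% in 89 ZD7288 cells. The vehicle library thus gained member share along these ranges and the ZD7288 library did not. Taken of the non-mitochondrial UMIs only, the vehicle medians were 23.6%, 26.2% and 28.3%, and the ZD7288 medians 23.1%, 23.6% and 22.3%. Within cells of 10000 to 30000 UMIs the vehicle medians again grew along the ranges, with 22.7%, 24.4% and 25.9% in the vehicle and 22.4%, 22.2% and 21.5% in the ZD7288 library.

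**Figure D4:**
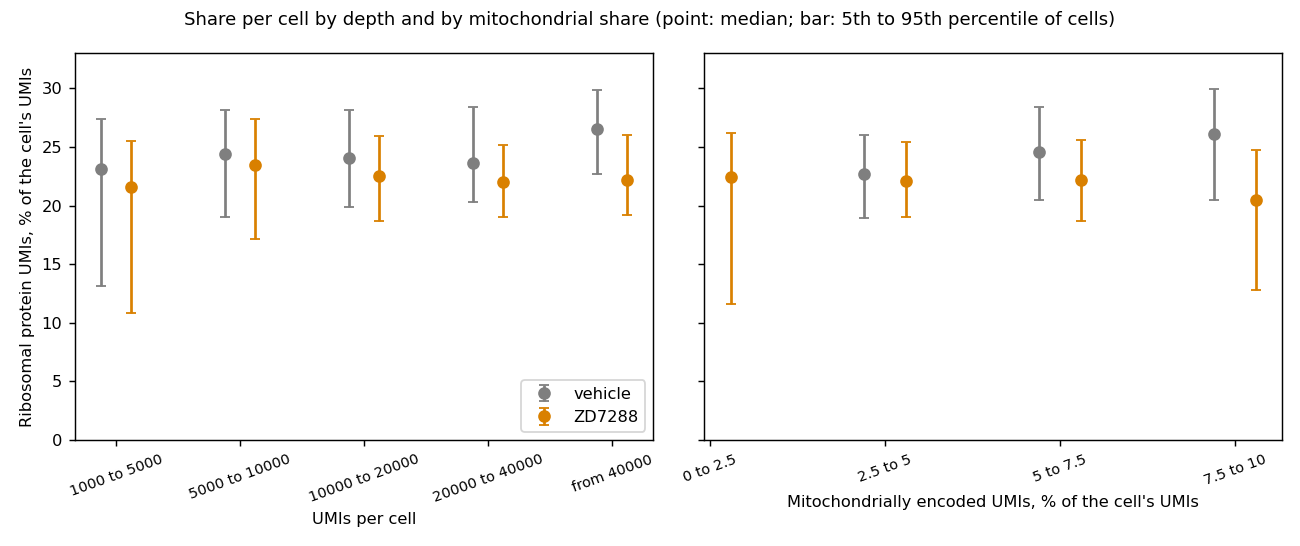
Median share of member UMIs per cell (points) with the 5th to 95th percentile of cells (bars) in ranges of UMIs per cell (left) and of mitochondrial share (right), for both libraries. The vertical axis is the percentage of a cell's UMIs. The vehicle medians climb from 22.7% to 26.1% along the mitochondrial ranges from 2.5% upward, while the ZD7288 medians stay between 20.5% and 22.4%, and the vehicle point under 2.5% is left out because it holds only 18 cells.

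Gene by gene the same pattern held. In cells with 2.5 to 5% mitochondrial UMIs, the median log2 ratio of the members was -0.03, the ratio was below 1 for 46 of 73 (49.2% of all genes), 0 members were lower (15.8% of all genes) and 1, Rpl37, was higher (17.7% of all genes). In cells with 5 to 7.5% the median was -0.18, with 65 of 73 ratios below 1 (41.9% of all genes), 2 lower (13.4%) and 0 higher (25.2%). In cells with 7.5 to 10% the median was -0.33, with 70 of 73 below 1 (38.8% of all genes), 40 lower (17.5%) and 1, Rps10, higher (35.9%). Within the vehicle library, 69 of 73 members were higher in cells of 5 to 10% than in cells of 2.5 to 5%, against 32.0% of all genes, with a median log2 difference of 0.14 where all genes had -0.12. Within the ZD7288 library 30 of 73 were higher, against 36.3% of all genes, with a median of -0.01 where all genes had -0.05. The vehicle culture had more of its cells in the upper ranges, and the part of the mitochondrial share in the difference between libraries was not tested.

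Single members followed this to different degrees. Rps12 stood at 1904 and 1774 CPM in vehicle and ZD7288 cells with 2.5 to 5% mitochondrial UMIs, a log2 ratio of -0.10. In cells with 7.5 to 10% Rps12 stood at 2503 and 1452 CPM, a log2 ratio of -0.79. Rpl41 went from a log2 ratio of -0.06 in the lowest of these ranges to -0.42 in the highest, and Rps2 from -0.09 to -0.48. Rps21 went from -0.24 to -0.53, and Rpl39 from -0.26 to -0.38. The sign of Rplp0 changed along the ranges, from 0.14 to -0.25, and that of Rpl22l1 from 0.16 to -0.19. Rpl37 kept a log2 ratio above 0 in all 3 ranges, at 0.35, 0.26 and 0.14.

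The share also moved with depth and with cell cycle genes. Vehicle medians ran from 23.1% to 26.6% and ZD7288 medians from 21.5% to 23.5% over the ranges of UMIs per cell. The vehicle median was above the ZD7288 median in each of 5 ranges of UMIs per cell, by the least in cells of 5000 to 10000 UMIs (24.4% and 23.5%) and by the most in cells from 40000 UMIs (26.6% in 65 cells and 22.2% in 231 cells). Cells with fewer than 10 UMIs of cell cycle genes at 2000 UMIs had medians of 24.8% and 22.9%, and cells from 10 such UMIs 23.6% and 21.5%. In both libraries cells with more cell cycle UMIs thus had a lower member share, and the libraries differed in both classes. By genes, 3 members were lower in the former class (15.4% of all genes) and 0 higher (29.9%), and 4 were lower in the latter (12.8%) and 0 higher (26.6%). Over cells of equal depth, Pearson's r of member and cell cycle UMIs was -0.34 and -0.32.

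The member share was also set, within each library, against 22 ATF4 target genes, which code largely for amino acid synthesis and transport. In the 25% of ZD7288 cells with the fewest such UMIs (median 5 at 2000 UMIs) the median member share was 22.3%, and in the 25% with the most (median 15) it was 21.8%. In the vehicle library these medians were 24.8% and 23.7%, at 1 and 5 ATF4 list UMIs. These groups of cells also differed in median mitochondrial share, which was 5.40% and 4.30% in the ZD7288 library and 6.45% and 5.35% in the vehicle library. The lowest ZD7288 cells and the highest vehicle cells had the same median of 5 ATF4 list UMIs, at 22.3% and 23.7% member UMIs. These cells are opposite ends of their libraries and were not matched in other respects. The part of the ATF4 list in the difference between libraries was not tested.

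Other genes of the translation machinery are given for comparison, where 27.1% of all measured genes were higher and 13.7% lower. Of 15 TOP motif genes outside the ribosome, such as elongation factors, the median log2 ratio was 0.02, 3 of them passed the rule upward and 0 downward, and 7 had a ratio below 1. The largest were Pabpc1, the poly(A) binding protein, at 202 CPM in the vehicle and 378 CPM in the ZD7288 library (log2 ratio 0.90), and Btf3, of the nascent chain complex, at 0.62. Ribosome biogenesis, the building of the subunits in the nucleolus, had 27 measured genes, and 17 of them were higher, 0 were lower and their median was 0.44. Nop56, of the box C/D particles that guide methylation of ribosomal RNA, had a log2 ratio of 0.88 and Bop1, which matures the 60S subunit, one of 0.77. Of 69 measured mitochondrial ribosomal proteins, the median was 0.02, with 15 past the rule upward, 7 downward and 32 ratios below 1, from Mrps36 at -0.74 to Mrpl47 at 0.72. These lists contain genes of lower abundance than the ribosomal proteins, and the difference between the lists was not tested.

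Promoter letters and ratios were set side by side. Among the measured members with 1 measured row and a RefSeq promoter, the 33 with a pyrimidine run at the start had a median log2 ratio of -0.19, from -0.39 to 0.22, and 31 of them had a ratio below 1. The 21 without a run had a median of -0.13, from -0.37 to 0.08, with 17 below 1. The 2 ranges overlapped almost wholly, and the highest and lowest of these members, Rpl37 and Rps21, both carry a run.

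The scaling of the libraries shifted all members together. Scaling by the median gene ratio moved the median of the members to -0.24, with 21 lower (18.8% of all genes) and 0 higher (19.7%). Scaling by the UMIs outside the members and the mitochondrial genes moved it to -0.23, with 15 lower (17.7%) and 0 higher (21.0%). Scaling by the summed members themselves sets their total equal in both libraries by construction. It left a median of 0.00 for the members and moved that of all genes to 0.24, with 2 members higher (42.2% of all genes) and 0 lower (7.88%). Each scaling shifts all log2 ratios by 1 constant, so the distance of -0.24 between the members' median and that of all genes is the same by construction. A rule of 1.5-fold left 0 members lower (5.20% of all genes) and 0 higher (10.1%), and a rule of 1.1-fold made 42 lower (26.7%) and 3 higher (45.6%). In cells of 10000 to 30000 UMIs 1 member was lower (13.7%) and 0 higher (24.6%), in cells thinned to 2000 UMIs 3 were lower, Rps21, Rpl39 and Rps18l1 (16.0%), and 1 higher (28.2%), and with no floor on the level 9 of 86 rows were lower (29.6%) and 1 higher (26.9%).

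**Figure D5:**
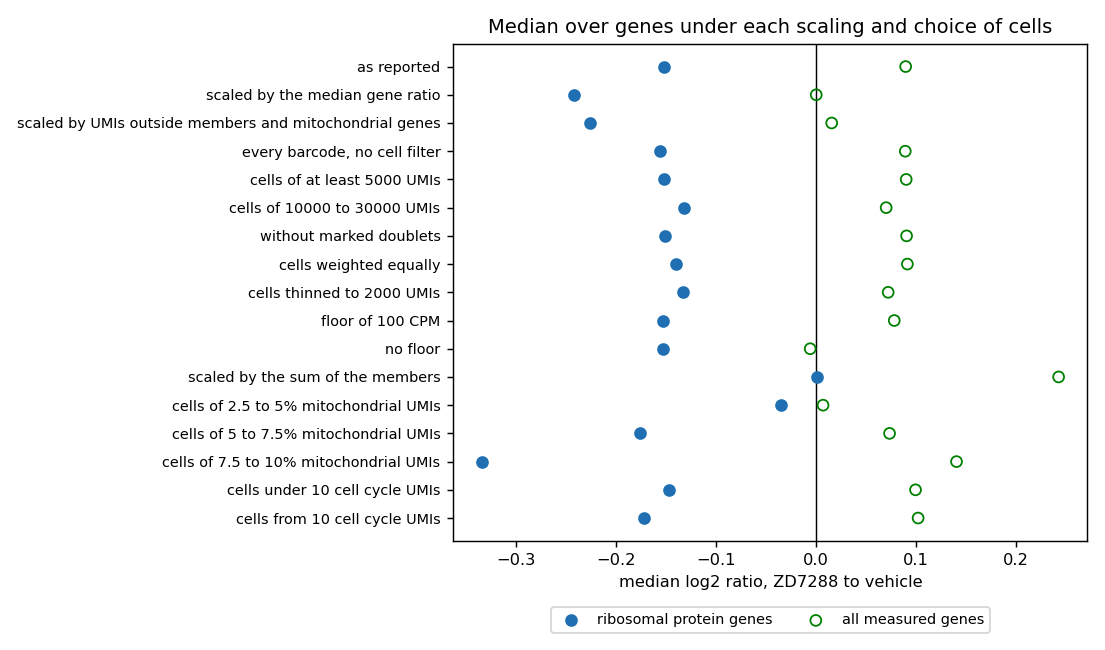
Median log2 ratio of ZD7288 to vehicle CPM over the measured members (filled) and over all measured genes (open) for each scaling and choice of cells. The members lie left of all measured genes in every line, by 0.24 as reported and by 0.04 in cells of 2.5 to 5% mitochondrial UMIs.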

How the data were processed

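The deposited matrix holds raw UMI counts of 25399 genes in 4691 barcodes, made by the authors with Cell Ranger, per the submitters' processing notes, and the file header gives version 3.0.2. The genome build is not given in the sources used here, nor is the annotation. Cells with at least 1000 UMIs, 500 genes and at most 10% mitochondrially encoded UMIs were kept (732 of 842 vehicle and 3135 of 3849 ZD7288 barcodes). Counts were summed per library and scaled to 1000000 (CPM). CPM have exact Poisson, ratios exact Clopper-Pearson and shares exact binomial 95% intervals. Computation used Python 3.11.15, numpy 2.4.6, scipy 1.17.1 and pandas 2.3.3, and the ratio code was tested on simulated data. Doublets, 4 vehicle and 79 ZD7288 cells, were scored against simulated doublets, marked at 0.8% of a library per 1000 cells, and left out in an alternative only. Thinning to 2000 UMIs left out 8 and 179 shallower cells.

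The members and lists were chosen with earlier results of these data known. Named were the 5 members of each subunit with the highest vehicle CPM, those past a log2 ratio of 0.32, the 4 nearest to it, the P stalk, Rpsa, Rpl5, Rpl11, Rps6, Rps27a, the pairs of similar symbols, and in each other list the 2 largest ratios. A few genes that this rule selects are not reported here. Symbols were matched to a RefSeq table of GRCr8, where Rps9l1 has an entry of its own. Protein sequences were not used here. Cell ranges by mitochondrial share and cell cycle as settings for the ratios, scaling by the members and the omission of similar symbols were chosen after the data were seen.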

Additional observations from a re-analysis of the deposited data

Results flagged for a closer look

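Barcodes left out for more than 10% mitochondrially encoded UMIs also held member UMIs. In 422 ZD7288 barcodes of this kind the median member share was 9.37% of UMIs (5th to 95th percentile 6.49% to 16.6%), at a median mitochondrial share of 30.0% and 3557 UMIs. In 72 vehicle barcodes it was 6.07% (3.77% to 22.8%), at 36.7% and 2556 UMIs. The comparisons do not use these barcodes, and the difference between the libraries in them was not tested.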

How the results depend on the processing

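The log2 ratio of the members had a median of -0.15 and counts of 3 lower and 0 higher. The median was -0.24 and -0.23 when scaled by the median gene ratio and by UMIs outside members and mitochondrial genes, with 21 and 15 lower, and 0.00040 when scaled by the sum of the members, with 0 lower and 2 higher. It was -0.13 in cells of 10000 to 30000 UMIs (1 lower) and -0.13 in cells thinned to 2000 UMIs (1 higher). It was -0.035, -0.18 and -0.33 in cells of 2.5 to 5%, 5 to 7.5% and 7.5 to 10% mitochondrial UMIs, with 0 and 40 lower in the first and last and 1 higher in each of these, -0.17 in cells from 10 cell cycle UMIs, and -0.19 without similar symbols. With no floor 9 were lower and 1 higher, the 1.5-fold rule gave 0 lower, and the 1.1-fold rule 42 lower and 3 higher. Beyond fewer cells, other rows or the rule itself, the cause was not tested.

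The summed share, 24.7% and 22.2%, was 24.4% and 21.9% in every barcode, 24.0% and 22.2% in cells of 10000 to 30000 UMIs, 24.2% and 22.04% with cells weighted equally, and 26.2% and 23.3% of UMIs outside mitochondrial genes. It was 24.2% in vehicle cells thinned to 2000 UMIs, and 22.2% in ZD7288 cells of at least 5000 UMIs, without marked doublets or with -ps rows. Of 210 values of 15 named members under alternatives, 87 stayed within the counting error and 123 moved. No paired analysis was possible because each group is 1 library, and for the same reason no replicate could be left out. Depth limits rows with few UMIs, such as Rps18l1 and Rps10, whose counting intervals are wide.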
